A study of Mus musculus with 14 samples.

Results

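Stage E2 erythroblasts were compared with stage E1 progenitors from mouse bone marrow, both held without EPO (erythropoietin, the hormone that drives red cell formation). The comparison used 7 of the 14 arrays of the series, 3 of stage E2 and 4 of stage E1. The other 7 arrays, 3 and 4 of the same stages after an EPO challenge, served as a second set in which to read the stage difference. The labels and not measured values set the comparison, and the difference of the group means was taken for all 45037 probe sets other than controls. The samples are labelled as biological replicates, and how many mice went into each culture is not given in the sources used here.

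Both stages came from marrow of wild-type C57Bl/6 female mice aged 8 to 12 weeks, expanded in SP34ex, a medium without serum. In the study's methods this medium held EPO, stem cell factor, dexamethasone and beta-estradiol. Stage E1 cells were taken at day 3 after Lin+ cells had been depleted, by positive selection for Kit and CD71. Stage E2 cells came from parallel cultures at day 3.5, after depletion of Lin+ and Kit+ cells and selection for CD71. The methods put the isolation of both stages at day 3.5, and they describe stage E1 as CFUe-like progenitors and stage E2 as proerythroblasts. Cells of either stage then spent 5.5 h without hematopoietic cytokines and 90 min more with no EPO, where the second set of arrays received EPO at 4 U/mL. Neither labels nor file headers name a scan date or batch, so stage, culture day, sort and any batch cannot be told apart.

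Early erythroid progenitors depend on Kit, the receptor of stem cell factor, and on the EPO receptor, and they divide while they mature. As Kit is lost, the cells take up iron through the transferrin receptor (CD71, gene Tfrc), switch on haem synthesis, globins and the proteins of the red cell membrane, and later slow their cycle. GATA1 and KLF1 are the transcription factors best known for turning these genes on, while GATA2, MYB and KIT belong to the earlier state.

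The arrays were Affymetrix mouse genome arrays, on which a set of short probes (a probe set) reads each transcript. Deposited values are GC-RMA log2 signals from which 1 constant per probe set had been subtracted, so a value near 0 is not a low level and only differences between arrays can be read. Differences are given as E2 minus E1 on the log2 scale with the standard error (SE) of the limma fit, where 1 unit is a doubling, and n is 4 E1 and 3 E2 arrays throughout. A gene passed at a Benjamini-Hochberg adjusted p under 0.05 over all probe sets. A gene with several probe sets was read from the probe set that varied most among the 7 EPO-challenged arrays. Those arrays do not enter the difference itself, but they add to the estimate of its spread. They also hold both stages, so the choice favours probe sets that differ between stages. Another probe set was called in the opposite direction for 142 of 3035 called genes with several (4.68%). In bulk RNA, fewer cells of a type and less RNA per cell cannot be told apart.

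Of 45037 probe sets, 4555 were higher in stage E2 (10.1%) and 4872 lower (10.8%). With a fold of at least 2 as well, these counts were 2542 (5.64%) and 2076 (4.61%). Among 18194 genes, 2369 rose from E1 to E2 (13%) and 2413 fell (13.3%). Of these, 1521 and 1230 (8.36% and 6.76% of all genes) did so by a fold of at least 2. The 13% and 13.3% are the shares against which counts in the gene and marker lists below are to be read. The median difference over all genes was -0.03, with 5% of genes below -1.25 and 5% above 1.43. Separation of the arrays alone was common: all E2 arrays lay above all E1 arrays for 16.7% of genes and below them for 37.8%. After each array was centred on its median these shares were 22.2% and 25.3%, so a lack of overlap is given below as a description only.

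**Figure D1:**
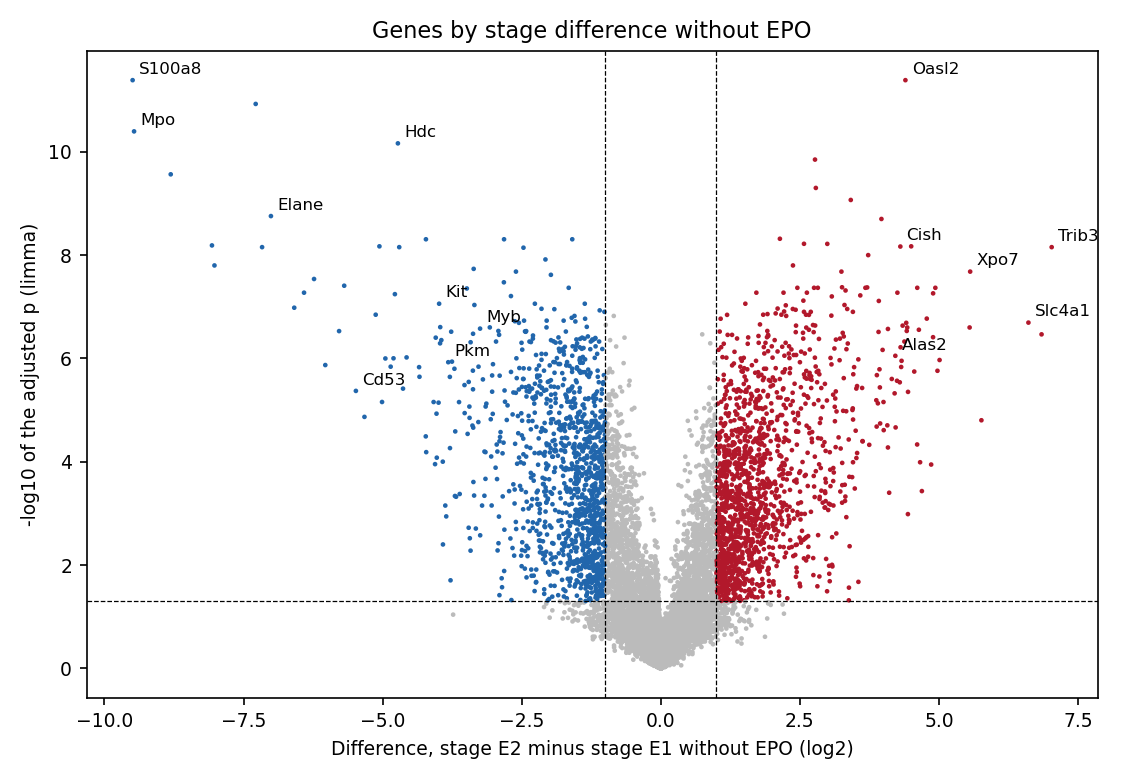
Each point is a gene, with its difference between stage E2 and stage E1 without EPO (x axis, log2) against the adjusted p of limma (y axis, -log10). Dashed lines mark a fold of 2 and an adjusted p of 0.05, red points are the 1521 genes higher and blue points the 1230 genes lower past both, and S100a8 and Mpo stand farthest to the left.

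Around the constant subtracted from each probe set, replicates of one stage varied together and arrays of different stages did not. Across probe sets, which do not count as replicates, Pearson's r was 0.768 to 0.899 between E1 arrays, 0.719 to 0.797 between E2 arrays and -0.236 to -0.0918 across stages. The subtraction takes away the profile that both stages share and lowers r across stages. An r below 0 therefore does not mean that the stages are unlike or opposed in level. The median SD of a probe set was 0.0934 among the E1 arrays and 0.0317 among the E2 arrays. E1 replicate 1 had the lowest mean correlation with the other E1 arrays (0.785 against 0.821 to 0.84).

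The EPO-challenged arrays gave the same stage difference for most of these genes. Of 2751 genes past both thresholds, 2741 (99.6%) had the same sign there and 2414 (87.7%) also passed there, while 88.3% of all genes had equal signs. These arrays hold other RNA samples of the same stages and the same sorts, and since each gene's probe set was chosen for its spread there, equal signs and passing are favoured. Over all 4618 probe sets past both thresholds, with no such choice, the shares were 99.1% and 85.1%, against 86.6% equal signs for all. The stage difference itself changed with EPO (limma interaction, adjusted p under 0.05) for 94 genes (0.517%).

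**Figure D2:**
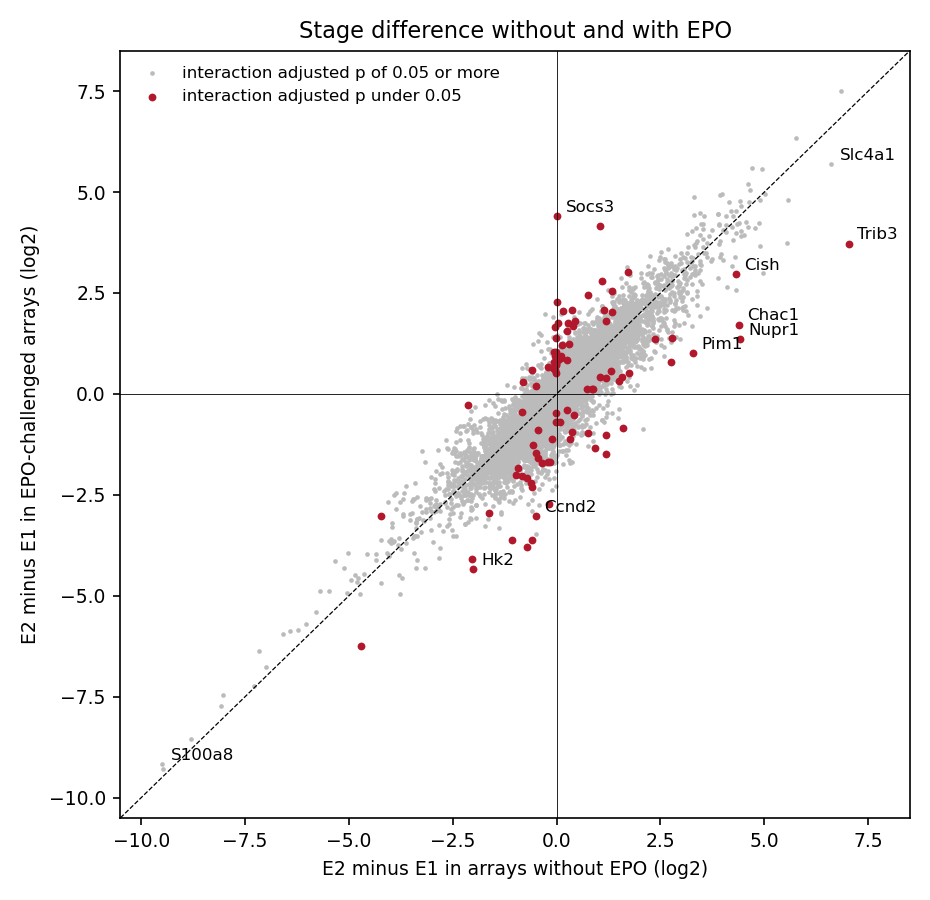
Each point is a gene, with its E2 minus E1 difference in the 7 arrays without EPO (x axis, log2) and in the 7 EPO-challenged arrays (y axis, log2). The dashed line marks equal differences, and the 94 red genes, Trib3, Nupr1, Chac1 and Socs3 among them, have an interaction adjusted p under 0.05.

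The sorted surface proteins were checked first on their transcripts. Kit, the receptor that was selected for in E1 and depleted in E2, had values of 3.94, 3.76, 4.09 and 3.76 in the E1 arrays and -0.14, 0.06 and -0.20 in the E2 arrays. Kit fell by 3.98 ± 0.18 (adjusted p = 8.7e-08), and the groups did not overlap. Since Kit protein defined the sort, this difference checks the labels and is not a finding. CD71 was selected for at both stages, yet its transcript Tfrc stood at -1.59, -1.57, -2.96 and -2.41 in the E1 arrays and 0.71, 0.79 and 0.94 in the E2 arrays, a rise of 2.94 ± 0.46 (adjusted p = 0.000769). The 4 E1 arrays spread over more than 1 log2 unit for Tfrc and none reached the E2 arrays. Gata2, a transcription factor of the progenitor state, fell by 2.55 ± 0.20 (adjusted p = 3.98e-06). Cd34, a surface marker of earlier progenitors, differed by -0.69 ± 0.23 and did not pass (adjusted p = 0.0586), with E1 values from 0.03 to 1.15.

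**Figure D3:**
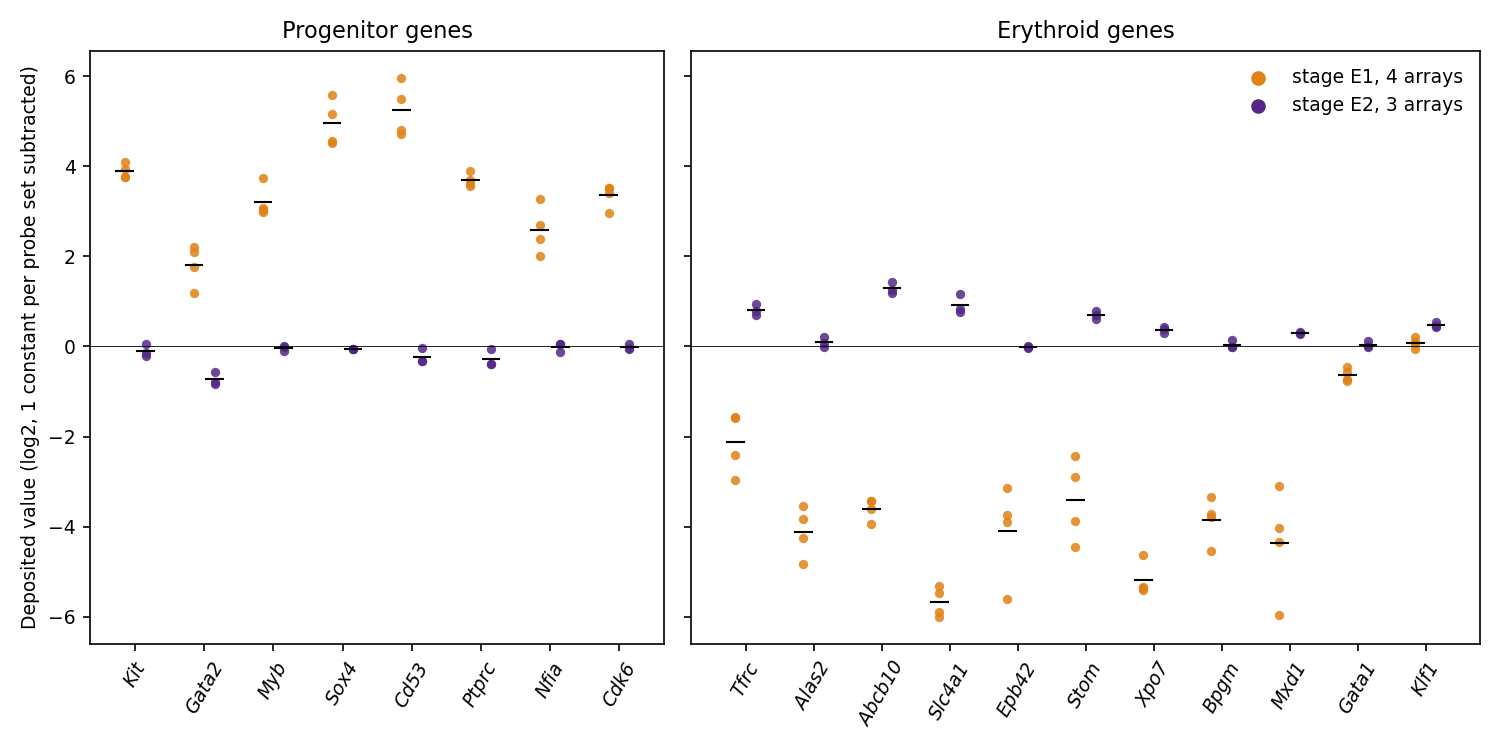
Points are the deposited values (log2, 1 constant per probe set subtracted) of single arrays, orange for the 4 stage E1 arrays and purple for the 3 stage E2 arrays without EPO, and short lines are group means. Progenitor genes such as Kit and Cd53 lie higher in all E1 arrays, erythroid genes such as Slc4a1 and Alas2 lie higher in all E2 arrays, and Klf1 and Gata1 differ by under 1 unit.

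Haem synthesis genes rose together. Of 15 measured genes of 16 listed, 11 were higher in E2 and 0 lower, with a median difference of 1.06 against -0.03 for all genes. Alas2, the erythroid enzyme of the first and rate-limiting step, stood at -3.55, -4.84, -3.83 and -4.25 in the E1 arrays and -0.01, 0.21 and 0.09 in the E2 arrays. That is a rise of 4.22 ± 0.27, or 18.6-fold (adjusted p = 8.87e-07), and the groups did not overlap. The housekeeping form of the same enzyme, Alas1, differed by -0.16 ± 0.16 and did not pass (adjusted p = 0.472), while its other probe set fell.

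Abcb10, a transporter of the inner mitochondrial membrane that stabilises the iron importer, rose most in this list. Its values were -3.95, -3.42, -3.62 and -3.43 in the E1 arrays and 1.43, 1.26 and 1.18 in the E2 arrays, a difference of 4.89 ± 0.27 (adjusted p = 3.87e-07). Further along the pathway Uros rose by 3.07 ± 0.20, Urod by 1.56 ± 0.20, Cpox by 1.06 ± 0.18, Ppox by 1.80 ± 0.16 and Fech, which inserts the iron, by 2.01 ± 0.15. Slc25a38, the mitochondrial glycine carrier that feeds the first step, rose by 1.02 ± 0.10, and Slc25a39, another mitochondrial carrier, by 2.38 ± 0.21. Alad, the second enzyme of the chain, was at -0.56 ± 0.36 (adjusted p = 0.264), although its other probe set rose. In the EPO-challenged arrays the median of the 15 genes was 1.42.

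Genes of the red cell membrane and its skeleton were also higher. Of 30 measured genes (33 listed), 22 rose and 0 fell, with a median of 1.47, and 19 of them rose by a fold of at least 2. Slc4a1 (band 3, the anion exchanger) had values of -5.90, -5.32, -5.48 and -6.01 in the E1 arrays and 0.77, 1.18 and 0.84 in the E2 arrays. With a difference of 6.61 ± 0.33 it was 97.5-fold higher in E2 (adjusted p = 2.02e-07), the third largest rise of all genes, and each of its 3 probe sets passed in this direction.

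Epb42, which ties band 3 to the skeleton, stood at -3.75, -5.61, -3.14 and -3.89 in the E1 arrays and 0.02, -0.04 and -0.02 in the E2 arrays. Its E1 arrays spread over more than 2 units, against a difference of 4.08 ± 0.45 (adjusted p = 5.28e-05). Stom (stomatin) rose by 4.11 ± 0.59, Tmod1, which caps actin filaments, by 3.62 ± 0.28, and the anchor protein Ank1 by 2.62 ± 0.50. Smaller rises came from Icam4 (1.39 ± 0.15), an adhesion molecule, and Rhag (0.82 ± 0.12), an ammonia channel. Sptb, the beta-spectrin, was at 0.10 ± 0.21 (adjusted p = 0.718) and Mpp1, a palmitoylated skeleton protein, at 0.18 ± 0.22 (adjusted p = 0.527), and in both cases the gene's other probe set rose.

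Promoter windows of these genes, from 250 bases before to 50 bases after the start in RefSeq (GRCm38.p6), were searched for the letters that GATA factors bind, AGATAA and TGATAA on either strand. Of all 32851 windows searched, which do not cover every chromosome, 18.6% held such a match. The share was 34.4% (11 of 32 windows) for the membrane list, 17.6% (3 of 17) for haem synthesis and 14.8% (4 of 27) for other late erythroid genes. It was 12% among all genes higher in E2 by a fold of at least 2 and 11% among those lower. The letters CCACACCC on either strand, which KLF1 binds, were in 3.56% of all windows, 3.12% of the membrane windows and 0 of the 17 haem windows. A match is a description of letters and not a bound site.

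The windows of 4 genes that rose and hold a GATA match are shown because the genes span a haem enzyme, a membrane protein, an adhesion molecule and a late erythroid ligase. Each window runs 5′ to 3′ on the gene's own strand, with the match in capitals. Alas2 lies at chrX:150547167-150547466 on the plus strand with its match starting at -86 from the start. Epb42 lies at chr2:121036828-121037127 on the minus strand, with its match at -226. Icam4 lies at chr9:21029182-21029481 on the plus strand, with its match at -43, and Trim10 at chr17:36869324-36869623 on the plus strand, with its match at -163.
Alas2: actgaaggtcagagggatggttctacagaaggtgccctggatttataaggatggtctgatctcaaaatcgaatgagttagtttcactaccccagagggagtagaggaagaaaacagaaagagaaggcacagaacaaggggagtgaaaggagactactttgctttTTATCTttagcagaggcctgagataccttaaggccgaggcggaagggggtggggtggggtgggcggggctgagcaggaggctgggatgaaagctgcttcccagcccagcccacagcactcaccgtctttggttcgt
Epb42: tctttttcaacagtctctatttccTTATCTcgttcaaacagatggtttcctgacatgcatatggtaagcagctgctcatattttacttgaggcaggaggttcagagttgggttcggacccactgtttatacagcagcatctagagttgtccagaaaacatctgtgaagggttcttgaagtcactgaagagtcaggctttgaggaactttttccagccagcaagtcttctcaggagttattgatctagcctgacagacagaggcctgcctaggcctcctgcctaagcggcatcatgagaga
Icam4: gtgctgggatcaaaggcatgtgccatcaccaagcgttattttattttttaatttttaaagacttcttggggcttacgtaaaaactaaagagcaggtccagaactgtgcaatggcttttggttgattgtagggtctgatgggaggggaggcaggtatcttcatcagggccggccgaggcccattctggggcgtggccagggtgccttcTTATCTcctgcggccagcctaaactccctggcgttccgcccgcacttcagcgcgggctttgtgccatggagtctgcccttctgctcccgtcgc
Trim10: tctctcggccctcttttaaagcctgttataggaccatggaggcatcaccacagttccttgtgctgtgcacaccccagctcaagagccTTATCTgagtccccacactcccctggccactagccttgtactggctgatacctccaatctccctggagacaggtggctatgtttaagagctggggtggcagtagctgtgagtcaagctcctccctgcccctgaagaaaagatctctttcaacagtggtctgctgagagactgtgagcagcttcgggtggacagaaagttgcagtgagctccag

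Other genes of late erythroid cells followed, with 20 of 25 measured (30 listed) higher, 1 lower and a median of 1.70. Xpo7, a nuclear exporter needed for nuclear condensation in erythroblasts, stood at -5.36, -5.35, -4.63 and -5.42 in the E1 arrays and 0.29, 0.43 and 0.39 in the E2 arrays, a rise of 5.56 ± 0.20 (adjusted p = 2.08e-08). Of its 8 probe sets 4 rose and 1 fell. Bpgm, which makes the regulator of haemoglobin's oxygen affinity, stood at -4.55, -3.71, -3.34 and -3.78 in the E1 arrays and 0.00, -0.02 and 0.14 in the E2 arrays, a rise of 3.88 ± 0.28 (adjusted p = 2.1e-06). The ubiquitin-conjugating enzyme Ube2l6 rose by 3.91 ± 0.21, the ligase Trim10 by 2.79 ± 0.062 and Cat (catalase, which breaks down peroxide) by 1.70 ± 0.27.

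The gene that fell was Car1, a carbonic anhydrase. It stood at 2.89, 2.77, 2.56 and 2.57 in the E1 arrays and 0.01, 0.01 and -0.01 in the E2 arrays, a difference of -2.69 ± 0.11 (adjusted p = 6.19e-08), against the direction of the rest of its list. The related enzyme Car2 was at -0.12 ± 0.048 (adjusted p = 0.103).

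Several iron genes rose. Beside Tfrc, the mitochondrial importer Slc25a37 rose by 2.25 ± 0.10, Ncoa4, the receptor that sends ferritin to lysosomes, by 1.86 ± 0.13, the endosomal reductase Steap3 by 1.25 ± 0.26 and the ferritin heavy chain Fth1 by 0.86 ± 0.11. In all, 8 of 17 measured genes rose (47.1%, against 13% of all genes) and 2 fell (11.8%, against 13.3%). Their median of 0.05 was 0.10 without E1 replicate 1, 0.12 without E1 replicate 2 and 0.31 after quantile normalization. The 2 that fell were Ireb2, which blocks or protects iron mRNAs, at -0.32 ± 0.07 (adjusted p = 0.00664), and the second transferrin receptor Tfr2 at -0.74 ± 0.21 (adjusted p = 0.0252). The call of Tfr2 was lost without E1 replicate 3 or 4 or E2 replicate 1, 2 or 3 (adjusted p = 0.0555 to 0.0777), and that of Ireb2 after quantile normalization (adjusted p = 0.0596).

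Globins could be read only in part, since the adult alpha and beta chains are near-identical copies, and probe sets that name several of them were not used. Of 12 listed genes 6 had a probe set of their own, 1 higher and 1 lower. Hbb-y, the embryonic beta-like chain, stood at -2.36, -2.42, -1.64 and -2.57 in the E1 arrays and 1.01, 0.94 and 1.17 in the E2 arrays, a rise of 3.29 ± 0.18 (adjusted p = 3.74e-07), and its 3 probe sets all passed. The single probe set that names Hba-a2 alone fell by 2.22 ± 0.33 (adjusted p = 0.000525), while 1 that names Hba-a1 alone was at -0.01 ± 0.011 and Hbb-b2 at 0.25 ± 0.16, neither past the test. With signals of such copies not separable, the direction of the adult chains is uncertain here.

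Transcription factors of the erythroid programme moved less evenly. Of 31 measured, 17 rose (54.8%, against 13% of all genes), 4 fell (12.9%, against 13.3%) and 10 did not pass. Their median was 0.70. GATA1 and KLF1, the factors that lead the programme, had small differences on the transcript level. Gata1 stood at -0.77, -0.46, -0.57 and -0.72 in the E1 arrays and 0.02, 0.11 and -0.02 in the E2 arrays, a rise of 0.67 ± 0.071 (adjusted p = 4.29e-05), and Klf1 rose by 0.40 ± 0.088 (adjusted p = 0.00662). The stages did not overlap for either gene, and both differences were under a fold of 2.

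Their partners Tal1 (0.38 ± 0.14, adjusted p = 0.0865) and Gfi1b (0.03 ± 0.30, adjusted p = 0.945) did not pass. Zfpm1 was at 1.93 and did not pass either (adjusted p = 0.0522), while Lmo2 was higher at 0.372 (adjusted p = 0.00563). The largest rise of the list was that of Mxd1. This factor, which competes with MYC for its partner MAX, stood at -3.10, -5.97, -4.34 and -4.04 in the E1 arrays and 0.27, 0.31 and 0.32 in the E2 arrays, a rise of 4.66 ± 0.56 (adjusted p = 0.000102). Its relative Mxi1 rose by 2.44 ± 0.24, Sox6, a repressor of embryonic globin genes, by 3.07 ± 0.15, E2f2, a cell cycle factor prominent in erythroblasts, by 2.80 ± 0.20, Nfe2, a globin activator, by 1.88 ± 0.16 and its small partner Mafk by 1.998 ± 0.18. The 4 that fell were Nfia (-2.60 ± 0.47), Klf9 (-1.76 ± 0.19), the fetal globin repressor Bcl11a (-1.45 ± 0.17) and the corepressor subunit Rcor1 (-0.88 ± 0.21).

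Most progenitor genes that passed fell. Of 38 measured (41 listed), 15 fell (39.5%, against 13.3% of all genes), 4 rose (10.5%, against 13%) and 19 did not pass. Their median was -0.48. Myb, a factor that keeps progenitors dividing, stood at 3.74, 3.09, 2.997 and 3.02 in the E1 arrays and -0.11, 0.02 and -0.02 in the E2 arrays, a difference of -3.25 ± 0.17 (adjusted p = 2.64e-07). The E1 arrays other than replicate 1 lay within 0.1 of each other. Sox4, a factor of immature cells, fell by 5.01 ± 0.42 (adjusted p = 6.95e-06), as did the homeobox gene Hoxa9 (-2.70 ± 0.52, adjusted p = 0.00305).

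Several falls in this list are of surface proteins that many blood cells share. Cd53, a tetraspanin of leukocytes, stood at 5.97, 5.50, 4.72 and 4.81 in the E1 arrays and -0.33, -0.03 and -0.33 in the E2 arrays and fell by 5.48 ± 0.43, and Ptprc, the leukocyte common antigen, fell by 3.97 ± 0.23. Cd93 fell by 4.22 ± 0.47 and Csf1r, the receptor of a macrophage growth factor, fell by 3.70 ± 0.54. The 4 that rose were Csf2rb2 (3.13 ± 0.29) and Csf2rb (2.02 ± 0.54), receptor subunits of the interleukin 3 family, Runx1 (1.63 ± 0.48) and Lyl1 (1.31 ± 0.087). The call of Csf2rb was lost without E2 replicate 2 or 3 (adjusted p = 0.0641 to 0.0725), and that of Runx1, 1 of whose 6 probe sets fell, without E1 replicate 2 or E2 replicate 1, 2 or 3 (adjusted p = 0.0532 to 0.106). The mean of the Runx1 probe sets was at 0.43 (adjusted p = 0.0639).

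**Figure D4:**
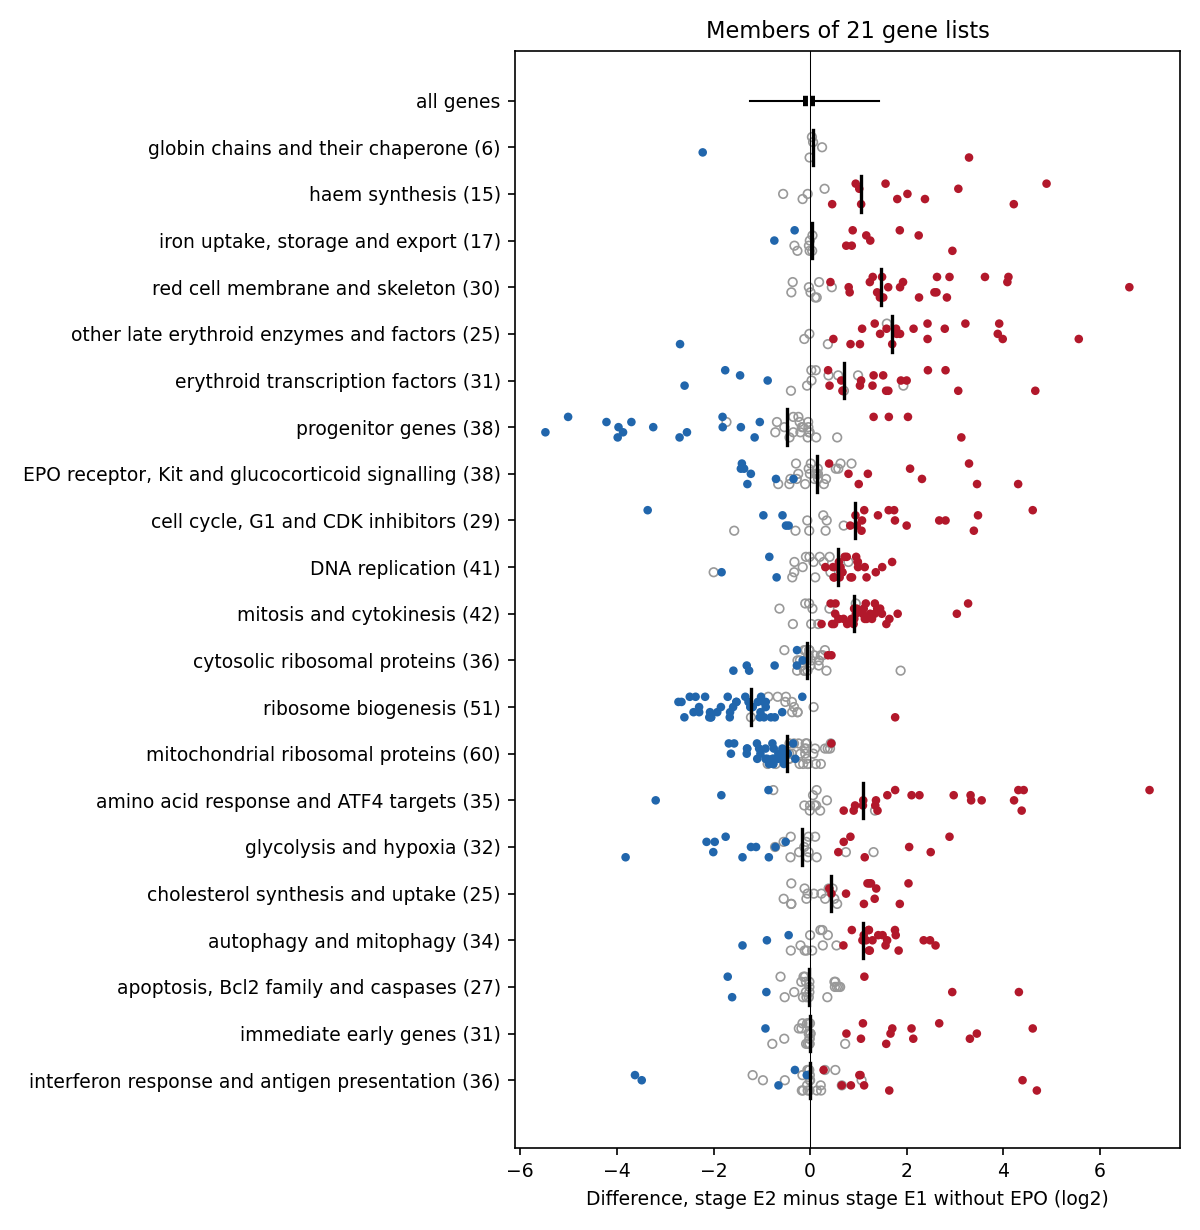
Each point is a measured member of a gene list (number in brackets) with its E2 minus E1 difference without EPO on the x axis (log2). Filled red and blue points passed as higher and lower, open points did not pass, black ticks are list medians, and the top bar spans all but the lowest and highest 5% of all genes, with the middle part between the quartiles thicker. Points of haem, membrane and mitosis lists sit mostly to the right and those of ribosome biogenesis mostly to the left.

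The largest falls of all were in markers of granule-bearing myeloid cells. Of 18 measured neutrophil markers (21 listed), 10 fell and 0 rose, with a median of -2.33. S100a8, a calcium-binding protein of neutrophils, stood at 9.71, 9.59, 9.26 and 9.33 in the E1 arrays and -0.05, -0.02 and 0.01 in the E2 arrays, a difference of -9.49 ± 0.11, or 721-fold lower in E2 (adjusted p = 4.09e-12). Mpo (myeloperoxidase) stood at 9.43, 9.88, 9.06 and 9.30 in the E1 arrays and -0.08, -0.01 and -0.07 in the E2 arrays, a difference of -9.47 ± 0.16 (adjusted p = 4.01e-11). In both the 3 E2 arrays lay within 0.1 of each other, far below every E1 array.

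The granule proteases Ctsg (-8.02 ± 0.28), Prtn3 (-7.28 ± 0.11) and Elane (-7.01 ± 0.18), typical of immature granulocyte precursors, also fell. S100a9 (-8.81 ± 0.18), Chil3 (-8.07 ± 0.25) and Ms4a3 (-6.23 ± 0.23) fell with them. Ltf was at -0.34 ± 0.27, Camp at -0.08 ± 0.18, Mmp8 at -0.52 ± 0.40 and Csf3r, the receptor of the granulocyte growth factor, at -0.09 ± 0.065, none past the test, and the values of Ltf and Mmp8 were away from 0 in E1 replicate 1 alone, while Ngp (-3.43 ± 0.66) and Lcn2 (-1.23 ± 0.29) fell. The mean value over the 18 markers was 3.80 to 4.08 in the E1 arrays and -0.04 to -0.03 in the E2 arrays.

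Of 21 monocyte and macrophage markers 8 fell (5 without E2 replicate 1 or without E2 replicate 2) and 0 rose, with a median of -0.20. F13a1 (coagulation factor XIII) fell by 6.03 ± 0.40, and so did the lysozymes Lyz1 (-5.78 ± 0.31) and Lyz2 (-4.34 ± 0.29) and the chemokine receptor Ccr2 (-2.93 ± 0.62). Of the 3 chains of complement C1q, made by macrophages, C1qb fell by 0.51 ± 0.13 (adjusted p = 0.015). C1qa (-0.01 ± 0.01) and C1qc (-0.01 ± 0.01) did not pass, nor did the macrophage marker Adgre1 (-0.20 ± 0.17). The call of C1qb was lost without E2 replicate 1 or 2 (adjusted p = 0.0506 to 0.0596). The mean over the 21 markers was 1.06 to 1.41 in E1 and -0.09 to -0.07 in E2.

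Of 17 mast cell and basophil markers 8 fell and 0 rose, with a median of -0.18. Hdc, which makes histamine, stood at 4.64, 4.46, 4.45 and 4.37 in the E1 arrays and -0.23, -0.26 and -0.25 in the E2 arrays, a difference of -4.72 ± 0.083 (adjusted p = 6.84e-11). Ms4a2, a chain of the IgE receptor, fell by 4.57 ± 0.29, as did the protease Cpa3 (-3.99 ± 0.34) and Mcpt8, a basophil protease (-2.07 ± 0.29). The tryptase Tpsb2 (-0.07 ± 0.064) and the chymase Cma1 (-0.17 ± 0.22) of mature mast cells did not pass. The mean over the 17 markers was 1.05 to 1.24 in E1 and -0.06 to -0.05 in E2.

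Of the remaining cell types few markers passed. None of 12 B cell, 17 T and NK cell or 7 eosinophil markers passed, their medians were -0.02, -0.04 and -0.02, and their values cannot tell a low level from an equal one. Of 9 dendritic cell markers 1 rose (H2-Ab1, 0.65 ± 0.13) and of 12 stromal and endothelial markers 1 fell (Pdgfrb, -0.66 ± 0.12). These shares (11.1% and 8.33%) were below those of all genes (13% and 13.3%).

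Megakaryocyte and platelet markers moved the other way, with 11 of 20 measured (22 listed) higher, 0 lower and a median of 0.73. Ppbp, a chemokine of platelet granules, stood at -0.48, -0.38, -0.58 and -0.15 in the E1 arrays and 3.90, 4.03 and 3.86 in the E2 arrays, a rise of 4.33 ± 0.28 (adjusted p = 1.11e-06). Plek, the main kinase C substrate of platelets, rose by 3.46 ± 0.24, Vwf (von Willebrand factor) by 2.04 ± 0.37, Gp9, a subunit of its receptor, by 2.04 ± 0.32, Pf4 by 1.70 ± 0.14 and Itga2b, the integrin chain CD41, by 0.999 ± 0.12. Tubb1, the platelet tubulin (-0.72 ± 0.26), and Thbs1, a protein of platelet granules (-1.38 ± 0.45), did not pass. The mean over the 20 markers was -0.33 to -0.20 in E1 and 0.71 to 0.81 in E2.

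Both sorts depleted Lin+ cells, a gate that removes mature lymphoid and myeloid cells, and selected for CD71. These marker shifts have the same stages and the same arrays as every gene group given here. Their part in the differences of the progenitor, signalling and metabolic genes was not tested. The study reports a high purity for its sorts. It also checked stage E1 cells for transcripts of lymphoid and myeloid cells, with Csf1r and Mac1 (gene Itgam) among the myeloid ones. Here Csf1r was at -3.70 (adjusted p = 0.000459), and Itgam at -0.159 did not pass (adjusted p = 0.0669).

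**Figure D5:**
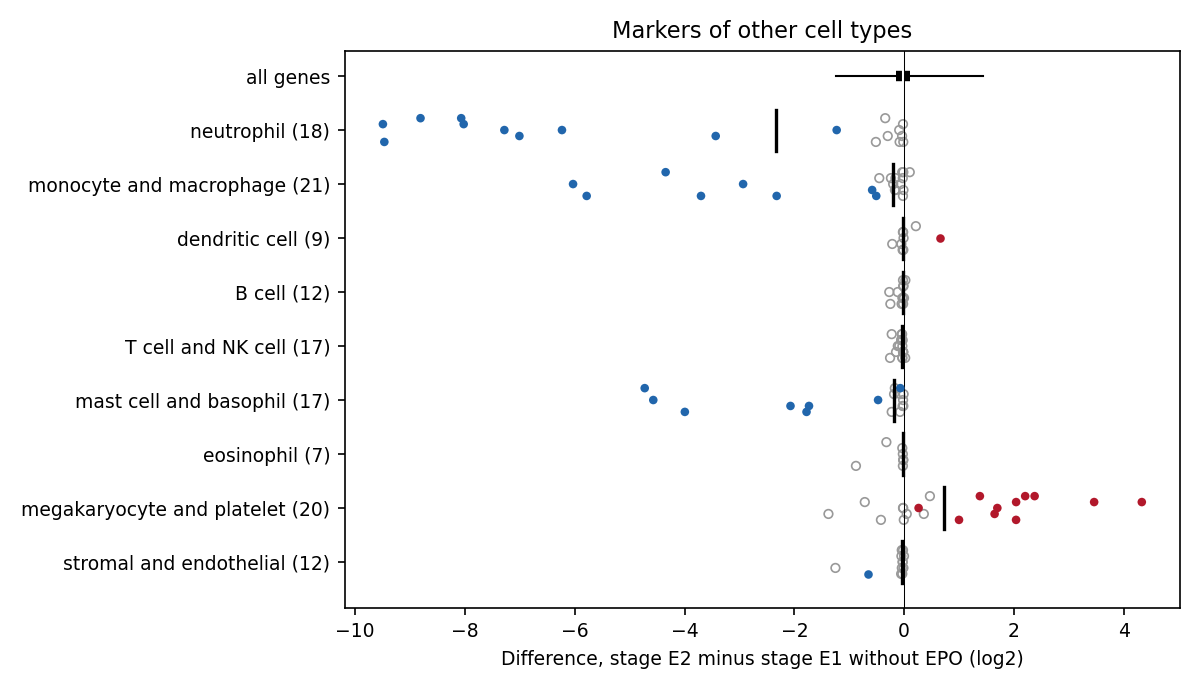
Each point is a measured marker gene of a cell type other than the sorted erythroid cells (number in brackets), with its E2 minus E1 difference without EPO on the x axis (log2). Filled points passed, open points did not, black ticks are medians and the top bar is as for the gene lists. Neutrophil, monocyte and mast cell markers reach far to the left, megakaryocyte markers to the right, and the medians of B, T and eosinophil markers lie near 0.

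Genes of EPO, Kit and glucocorticoid signalling had 9 of 38 measured higher (23.7%, against 13% of all genes), 7 lower (18.4%, against 13.3%) and 22 not past the test. After quantile normalization the median of 0.14 turned to -0.23, with 7 higher and 11 lower. That step ranked values from which a constant per probe set had been subtracted, and such ranks are not ranks of level. It thus cannot settle the balance, which is left uncertain. All cells had been without EPO for hours. Cish, Pim1, Socs3 and Podxl, which the paper lists as examples of genes earlier implicated as STAT5 targets, were read one by one. Cish, a feedback inhibitor of the receptor, stood at -5.44, -5.11, -5.83 and -5.38 in the E1 arrays and -1.11, -1.24 and -1.05 in the E2 arrays, a rise of 4.31 ± 0.13 (adjusted p = 6.8e-09). The survival kinase Pim1 stood at -3.09, -4.14, -3.33 and -3.27 in the E1 arrays and -0.08, -0.25 and -0.18 in the E2 arrays, a rise of 3.29 ± 0.24 (adjusted p = 2.4e-06). Socs3, another feedback inhibitor, was at 0.01 ± 0.081 (adjusted p = 0.9) without EPO but 4.40 in the EPO-challenged arrays (interaction adjusted p = 2.83e-08). Podxl (podocalyxin) went the other way, at -1.37 (adjusted p = 0.00995). Other EPO targets of the study in this list were mixed, and most did not pass. Irs2 was at 1.195 (adjusted p = 0.0139) and Gab2 at -0.707 (adjusted p = 0.00115). Those not past the test were Socs2 (0.583), Osm (0.329), Pim3 (-0.43), Spred1 (0.165), Spred2 (-0.246) and Pik3cb (0.089).

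The receptor itself, Epor, rose by 1.01 ± 0.29 (adjusted p = 0.0275), a call that was lost without E1 replicate 1 or 2 or E2 replicate 1, 2 or 3 (adjusted p = 0.051 to 0.107). Its signal carriers Stat5a (0.16 ± 0.68, with 1 further probe set lower) and Stat5b (0.53 ± 0.46) did not pass. Jak2, the kinase bound to the receptor, was lower at -0.344 (adjusted p = 0.0422). Sos1 (-1.413, adjusted p = 3.95e-07) and Pik3cd, a catalytic subunit of PI3 kinase (-1.227, adjusted p = 0.00216), were lower too. Pik3r1, the regulatory subunit of PI3 kinase, rose by 3.46 ± 0.41 and the glucocorticoid-induced Tsc22d3 by 2.31 ± 0.36. Nr3c1, the glucocorticoid receptor itself, fell by 1.30 ± 0.25 (adjusted p = 0.00263), as did Zfp36l2, an RNA-binding protein that the receptor induces in progenitors (-1.43 ± 0.14).

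Tnfrsf13c, a receptor of the TNF family that the study followed up, stood at -3.25, -3.28, -2.61 and -2.76 in the E1 arrays and -2.17, -2.04 and -2.33 in the E2 arrays. The study reported that its transcript peaked at stage E2 in cells assayed directly upon isolation, whereas the cells here had been without EPO for hours. On the arrays here the difference of 0.79 ± 0.24 passed (adjusted p = 0.0394). The call was lost without E1 replicate 1 or 2 or E2 replicate 1, 2 or 3 (adjusted p = 0.067 to 0.134), with differences of 0.69 to 0.87. After quantile normalization the difference turned to -2.001. That step ranked values from which a constant per probe set had been subtracted, and such ranks are not ranks of level. It thus cannot settle the direction, which is left uncertain.

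Cell cycle genes were higher in E2 on both the dividing and the arresting side. Of 42 measured mitosis genes (43 listed), 33 rose and 0 fell, with a median of 0.91. The phosphatase Cdc25b rose by 3.27 ± 0.18, the kinase Aurkb of the chromosome passenger complex by 1.64 ± 0.13, the checkpoint kinase Bub1 by 1.81 ± 0.36 and Ube2c, which helps end mitosis, by 1.49 ± 0.19. Top2a, which untangles DNA, was at -0.10 ± 0.21 (adjusted p = 0.714). With 1 array left out, 26 to 32 of these genes rose.

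DNA replication genes rose in 24 of 41 cases and fell in 3, with a median of 0.57. Rrm2 and Rrm1, the subunits of ribonucleotide reductase, rose by 1.70 ± 0.12 and 1.49 ± 0.10, and Tk1 (thymidine kinase) by 1.17 ± 0.089. The 3 lower genes were Mcm3 (-1.83 ± 0.39), whose partners Mcm2 (0.61 ± 0.092) and Mcm6 (0.95 ± 0.18) in the replicative helicase rose, and the polymerase subunits Pola1 (-0.69 ± 0.094) and Pole (-0.84 ± 0.041). Probe sets of the same gene differed here: 3 of the 5 for Mcm3 rose, the mean of all 5 was at -0.03 and did not pass (adjusted p = 0.771), and 1 of the 3 for Mcm6 fell. Pcna, the sliding clamp, was at -0.01 ± 0.041 (adjusted p = 0.806).

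Among genes of G1 and its inhibitors 16 of 29 measured rose (55.2%, against 13% of all genes) and 5 fell (17.2%, against 13.3%). Their median was 0.94. Btg2, an antiproliferative factor, stood at -4.38, -3.71, -4.37 and -4.37 in the E1 arrays and 0.51, 0.48 and 0.21 in the E2 arrays, a rise of 4.61 ± 0.49 (adjusted p = 4.62e-05). Cdkn1a (p21) stood at -2.89, -3.74, -3.44 and -4.06 in the E1 arrays and -0.17, -0.05 and 0.05 in the E2 arrays, a rise of 3.48 ± 0.23 (adjusted p = 1.47e-06). The inhibitors Cdkn2d (p19), Cdkn2c (p18) and Cdkn1b (p27) rose by 2.67 ± 0.19, 1.998 ± 0.19 and 1.63 ± 0.18. The D cyclins differed in sign, with Ccnd3 at 1.76 ± 0.10 and Ccnd2 at -0.50 ± 0.14 (adjusted p = 0.0267). The call of Ccnd2 was lost without E1 replicate 1 or 2 or E2 replicate 1 or 2 (adjusted p = 0.06 to 0.109).

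Their kinase Cdk6, known for its part in blood progenitors, stood at 3.52, 2.97, 3.52 and 3.41 in the E1 arrays and 0.06, -0.05 and -0.04 in the E2 arrays, a difference of -3.36 ± 0.12 (adjusted p = 1.84e-08). Cdk4 (-0.57 ± 0.11), the ligase subunit Skp2 (-0.97 ± 0.25) and Ccng1 (-0.45 ± 0.14) were the others that fell. The call of Skp2 was lost without E2 replicate 3 (adjusted p = 0.0604), on the 7 arrays alone (0.0561), after quantile normalization (0.0838) and with array weights by group (0.071). That of Ccng1 was lost without E1 replicate 2 or 3 or E2 replicate 1, 2 or 3 (adjusted p = 0.0718 to 0.139), and the mean of its probe sets was at -0.10 (adjusted p = 0.497). Without any 1 of the E2 arrays, 3 genes of this list fell.

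Most ribosome biogenesis genes fell. Of 51 genes, all measured, 39 fell (35 to 40 with 1 array left out), 1 rose and 11 did not pass, with a median of -1.23 against -0.03 for all genes. Wdr12, a factor of the large subunit, fell by 2.73 ± 0.39 (adjusted p = 0.00037). Gnl3 (nucleostemin) stood at 1.15, 1.21, 1.41 and 1.36 in the E1 arrays and -1.32, -1.30 and -1.34 in the E2 arrays, a difference of -2.60 ± 0.094 (adjusted p = 2.08e-08). Nop58, a core protein of the particles that methylate ribosomal RNA, fell by 2.49 ± 0.23 as did its partner Fbl (-1.19 ± 0.13). Polr1a, the largest subunit of RNA polymerase I, fell by 1.66 ± 0.34, and the nucleolar chaperone Npm1 fell by 1.03 ± 0.091.

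The exception was Ubtf, an activator of polymerase I, which rose by 1.76 ± 0.37 (adjusted p = 0.00554). Myc, the factor best known for driving these genes, fell by 0.93 ± 0.22 (adjusted p = 0.0118). In the EPO-challenged arrays the median of the list was -1.71. The matched promoter windows of these genes held a GATA match in 1 of 54 cases (1.85%).

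Mitochondrial ribosomal proteins fell in 30 of 60 cases (25 to 32 with 1 array left out), with a median of -0.48. Mrps35 fell by 1.68 ± 0.11 and Mrpl47 fell by 1.64 ± 0.11. Mrpl28 was the gene that rose (0.44 ± 0.12, adjusted p = 0.0193), a call lost without E2 replicate 2 or 3 (adjusted p = 0.0603 to 0.0777) and for the mean of its probe sets (0.16, adjusted p = 0.0768). Of 36 cytosolic ribosomal proteins measured (61 listed), 2 were higher (5.56%, against 13% of all genes) and 7 lower (19.4%, against 13.3%). Their median was -0.07. After quantile normalization these were 6 higher, 4 lower and -0.015. Without E1 replicate 1 the median was -0.03, and without E1 replicate 3 the higher count was 4. Rpl37 (-1.59 ± 0.19) and Rps3 (-1.31 ± 0.17) were the lowest of the 7, while Rplp0 (0.44 ± 0.051) and Rps29 (0.37 ± 0.051) were the 2 higher. Many of these proteins have processed copies in the genome, so single probe sets are uncertain.

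Genes of the amino acid response, which ATF4 turns on when amino acids or haem run short, held the largest rise of all. Of 35 measured (36 listed), 21 rose and 3 fell, with a median of 1.10. Trib3, a pseudokinase that ATF4 induces, stood at -7.67, -7.35, -6.68 and -6.77 in the E1 arrays and -0.28, 0.00 and 0.00 in the E2 arrays, a rise of 7.03 ± 0.22, or 130-fold (adjusted p = 6.99e-09). Nupr1 stood at -4.47, -4.42, -4.24 and -4.81 in the E1 arrays and -0.04, -0.20 and 0.04 in the E2 arrays and Chac1, which degrades glutathione, at -3.98, -5.09, -4.20 and -4.40 in the E1 arrays and 0.00, 0.00 and -0.12 in the E2 arrays. Their rises were 4.42 ± 0.23 and 4.38 ± 0.25, with no overlap between the groups.

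Sesn2, which restrains mTORC1, rose by 4.31 ± 0.26, Ddit3 (CHOP) by 3.32 ± 0.13, Atf5 by 3.55 ± 0.23 and Atf4 itself by 1.40 ± 0.25. After quantile normalization Atf4 was at 0.65 and no longer passed (adjusted p = 0.217). Eif2ak1, the haem-regulated kinase upstream of ATF4 in erythroid cells, rose by 2.26 ± 0.24, and Slc6a9, a glycine carrier at the cell surface, by 3.33 ± 0.29. The list was not uniform. Asns, the asparagine synthetase, was at 0.09 ± 0.13 (adjusted p = 0.584), and 2 enzymes of serine synthesis fell, Psat1 (-3.20 ± 0.23) and Phgdh (-1.84 ± 0.12), while the third, Psph, was at -0.76 ± 0.29 and did not pass (adjusted p = 0.0937). The kinase Eif2ak4 (-0.86 ± 0.22) was the third that fell, a call lost without E2 replicate 2 (adjusted p = 0.0677).

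With EPO the differences of these genes were smaller: Trib3 was at 3.72, Nupr1 at 1.37 and Chac1 at 1.72 in the EPO-challenged arrays (interaction adjusted p = 0.00111, 0.00298 and 0.0119). The median of the list there was 0.58. In the study Trib3, Chac1 and Atf4 are also EPO-induced genes of stage E1 cells. Chac1 is counted there among the new targets of the EPO receptor through Stat5. Membership of this list is thus not a sign that ATF4 alone set these differences, and the cause was not tested.

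The windows of this list were searched for TGATGCAA on either strand, letters bound by ATF4 with a partner, a motif added after the values had been seen. It was in 5 of 36 windows (13.9%) against 0.895% of all windows. The list was drawn up from known ATF4 targets, so this share says nothing about the stages. Among all genes higher in E2 by a fold of at least 2 the share was 0.522%, and among those lower 0.395%. The windows of 3 genes that hold it are shown, with the match in capitals. Nupr1 lies at chr7:126625421-126625720 on the minus strand with its match starting at -110, and Chac1 at chr2:119350992-119351291 on the plus strand with its match at -193. Slc7a11, the cystine carrier, rose by 1.36 ± 0.11, a call lost after quantile normalization (0.69, adjusted p = 0.0699), and lies at chr3:50443564-50443863 on the minus strand, with matches at -66 and -47.
Nupr1: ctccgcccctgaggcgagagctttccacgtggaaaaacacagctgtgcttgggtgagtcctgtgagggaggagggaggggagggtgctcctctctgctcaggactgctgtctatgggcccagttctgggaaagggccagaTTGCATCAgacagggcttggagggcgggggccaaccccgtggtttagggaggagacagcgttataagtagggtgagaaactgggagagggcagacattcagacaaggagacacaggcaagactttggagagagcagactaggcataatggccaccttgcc
Chac1: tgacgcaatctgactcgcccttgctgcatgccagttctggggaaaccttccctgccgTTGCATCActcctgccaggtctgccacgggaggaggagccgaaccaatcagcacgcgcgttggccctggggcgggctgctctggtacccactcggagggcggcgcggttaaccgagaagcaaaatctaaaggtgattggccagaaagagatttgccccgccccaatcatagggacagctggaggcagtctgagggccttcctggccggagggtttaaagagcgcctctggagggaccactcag
Slc7a11: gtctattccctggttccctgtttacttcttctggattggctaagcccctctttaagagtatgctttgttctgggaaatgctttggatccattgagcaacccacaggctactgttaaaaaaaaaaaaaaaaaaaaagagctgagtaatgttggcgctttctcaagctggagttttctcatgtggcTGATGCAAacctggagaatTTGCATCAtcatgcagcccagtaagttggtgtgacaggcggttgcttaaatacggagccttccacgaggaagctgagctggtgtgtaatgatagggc

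Glycolysis genes were mostly lower where they passed. Of 32 measured glycolysis and hypoxia genes, 11 fell (34.4%, against 13.3% of all genes) and 7 rose (21.9%, against 13%). Their median of -0.18 was -0.30 without E1 replicate 1 and -0.09 without E1 replicate 3. Pkm, the pyruvate kinase gene of progenitors and most tissues, stood at 3.20, 3.52, 4.01 and 4.21 in the E1 arrays and -0.25, -0.02 and 0.02 in the E2 arrays, a difference of -3.82 ± 0.25 (adjusted p = 1.18e-06). The enzymes Hk2 (-2.005 ± 0.15), Pfkp (-2.14 ± 0.14), Pgk1 (-1.98 ± 0.17) and Ldha (-1.23 ± 0.19) fell, while Hk1, the form of the red cell, rose by 1.13 ± 0.25 and the glucose carrier Slc2a1 by 2.88 ± 0.22. Pklr, the red cell and liver pyruvate kinase, was at -0.23 ± 0.36 (adjusted p = 0.637), with 1 of its 3 probe sets lower.

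Cholesterol genes rose in 11 of 25 cases (8 to 13 with 1 array left out) and fell in 0, with a median of 0.44. Hmgcs1, an early enzyme of the pathway, rose by 1.86 ± 0.33. Autophagy genes rose in 20 of 34 measured cases (36 listed), with a median of 1.10. That is 58.8%, against 13% of all genes, while 3 fell (8.82%, against 13.3%). Bnip3l, a receptor for mitochondria, was listed but not measured. The ubiquitin-like proteins of the autophagosome Map1lc3a and Map1lc3b rose by 2.60 ± 0.50 and 1.16 ± 0.11, the starting kinase Ulk1 by 1.77 ± 0.28, Wipi1 by 2.48 ± 0.24 and the cargo receptor Sqstm1 by 1.22 ± 0.27. The 3 lower genes were Bnip3 (-1.40 ± 0.16) and Fundc1 (-0.90 ± 0.19), receptors for mitochondria, and the protease Atg4c (-0.45 ± 0.14, adjusted p = 0.0487), whose call was lost without E1 replicate 1, 3 or 4 or E2 replicate 1, 2 or 3 (adjusted p = 0.0753 to 0.129).

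Most apoptosis genes did not pass, with 21 of 27 measured (33 listed) in that state and a median of -0.03. Of the 27, 3 rose and 3 fell (11.1% each, against 13% and 13.3% of all genes). Bcl2l1, the survival factor Bcl-xL of late erythroblasts, stood at -4.38, -4.39, -4.12 and -3.83 in the E1 arrays and 0.00, 0.26 and 0.16 in the E2 arrays, a rise of 4.32 ± 0.29 (adjusted p = 1.46e-06). Its antagonists differed: Bbc3 (PUMA) rose by 2.94 ± 0.31 and Bak1 by 1.12 ± 0.17, while Bcl2l11 (BIM) fell by 1.71 ± 0.24. Birc3 (-1.61 ± 0.23) and Casp6 (-0.91 ± 0.16) were the others that fell. Bcl2 (-0.53 ± 0.49) and Mcl1 (0.59 ± 0.20) did not pass, though 1 further probe set of each was lower.

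Immediate early genes, which cells switch on within minutes of a stimulus, rose in 12 of 31 cases with a median of 0.00. Egr1 stood at -3.67, -4.45, -3.26 and -2.74 in the E1 arrays and 0.06, -0.06 and -0.24 in the E2 arrays, a rise of 3.45 ± 0.30 (adjusted p = 9.24e-06). Klf6 rose by 3.31 ± 0.45, Jun by 2.67 ± 0.27 and the phosphatase Dusp1 by 2.10 ± 0.13, whereas Fos was at -0.78 ± 0.39 (adjusted p = 0.175) and Myc was the 1 that fell. Of 36 interferon and antigen presentation genes, 9 rose (25%, against 13% of all genes) and 5 fell (13.9%, against 13.3%). Their median was -0.01, and the share that fell was near that of all genes. The lower count was 2 without E2 replicate 1 or 2 and 3 without E1 replicate 2 or 3 or E2 replicate 3.

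The interferon genes did not move as a group. Rsad2 (viperin) stood at -3.07, -5.52, -4.12 and -5.01 in the E1 arrays and 0.24, 0.35 and 0.20 in the E2 arrays, a rise of 4.69 ± 0.67 (adjusted p = 0.000369), and Oasl2 rose by 4.40 ± 0.054, yet Ifit1 (-0.01 ± 0.011), Mx2 (-0.03 ± 0.012) and Usp18 (-1.19 ± 0.72) did not pass. Ifitm1 fell by 3.63 ± 0.30 and Psmb8, a subunit of the immunoproteasome, fell by 3.49 ± 0.14.

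The largest single differences outside these lists were as follows, among genes with a fold of at least 2 and no overlap. Tent5c, a poly(A) polymerase that stabilises mRNAs, stood at -5.68, -6.24, -5.63 and -4.97 in the E1 arrays and -0.24, 0.01 and -0.01 in the E2 arrays, a rise of 5.55 ± 0.29 (adjusted p = 2.51e-07). Apol11b rose by 6.84 ± 0.37, the membrane protein Tmcc2 by 5.76 ± 0.54, Gpcpd1, which breaks down glycerophosphocholine, by 5.01 ± 0.32 and the deubiquitinase Otub2 by 4.97 ± 0.34. Ube2o, the ubiquitin ligase that clears proteins from reticulocytes, rose by 4.86 ± 0.59, and Tinagl1, Pdzk1ip1 and Fhl1 by 4.93 ± 0.20, 4.89 ± 0.20 and 4.78 ± 0.23. For Fhl1 only 1 of 2 probe sets passed as higher.

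On the falling side Anxa1, an annexin that glucocorticoids induce, stood at 6.66, 6.47, 6.17 and 6.01 in the E1 arrays and -0.25, -0.01 and 0.01 in the E2 arrays, a difference of -6.41 ± 0.27 (adjusted p = 5.32e-08). Plac8, a small protein of myeloid and lymphoid cells, fell by 7.17 ± 0.23, and so did Pawr, a regulator of apoptosis (-6.59 ± 0.30), and Gdpd3, a lysophospholipase (-5.69 ± 0.22). The other 11 of the 15 largest falls were S100a8, Mpo, S100a9, Chil3, Ctsg, Prtn3, Elane, Ms4a3, F13a1, Lyz1 and Cd53, and 10 of them are on the marker lists of neutrophils or monocytes. For Anxa1, Pawr and Cd53 only 1 of 2 probe sets passed as lower, and for Lyz1 2 of 3.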

How the data were processed

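Expression was measured on 14 Affymetrix mouse arrays, 4 and 3 of stages E1 and E2 without EPO and the same numbers with EPO. The authors summarised the scans by GC-RMA in GeneSpring and deposited log2 values, the base being inferred from the folds in the study. Each deposited column holds differences from 1 constant per probe set (78.1% of probe sets hold a pair of values of equal size on either side of 0, within 2e-06), so levels and a filter on low signal could not be had, and precision rests on how many arrays there were.

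limma 3.58.1 in R 4.3.3 was fitted to all 14 arrays with 4 group means (10 residual degrees of freedom), and E2 minus E1 without EPO was tested two-sided. Adjusted p-values are Benjamini-Hochberg values over 45037 probe sets, 64 controls being left out. Of these, 34945 name 1 gene, 932 several and 9160 none in GEO's platform annotation, and those with several were not used to name genes. The fit was tested on simulated data.

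Genes were named from the lists, at most 8 of a list with all array values, and from the 15 largest rises and falls that passed with a fold of at least 2 and no overlap. The comparison and the lists were chosen with earlier results of these data known. Alternatives were fits on 7 arrays, with the replicate number as a block, with array weights, robust, without each array, after quantile normalization or centring, with another fold or probe set rule, and the methods' t-test. Of 69 haem, membrane and late erythroid genes 56 had a promoter window among those searched, which do not cover every chromosome.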

Additional observations from a re-analysis of the deposited data

Results flagged for a closer look

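For 220 of the genes given above, the E1 arrays were compared by Dixon's ratio (the gap of the outermost array over the whole range). In 18 of them an E1 array stood apart from the other 3, past the critical value, where chance gives about 1 in 20 groups. The ratio was 0.996 for Mmp8 and 0.993 for Ltf, genes of mature neutrophils whose values in E1 replicate 1 were 1.997 and 1.34 while the other E1 arrays lay within 0.01 of 0. Replicate 1 also stood apart for Hbb-b2 (0.978), Gpcpd1 (0.977), Usp18 (0.972), Map1lc3a (0.932), Myb (0.879), Oasl2 (0.885) and Phgdh (0.838). Replicate 2 did so for Btg2 (0.991), Rrm1 (0.933), Sesn2 (0.907), Tk1 (0.895), Jun (0.882), Mxi1 (0.862) and Mrpl47 (0.832), replicate 3 for Xpo7 (0.918) and replicate 4 for Fos (0.871). Of these, Hbb-b2, Ltf, Mmp8, Fos and Usp18 had not passed.

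The stage difference changed with EPO for 10 of the 220 checked genes by the limma interaction. Its value, the difference with EPO minus that without, was -3.302 for Trib3 (adjusted p = 0.00111), -3.055 for Nupr1 and -2.663 for Chac1 of the ATF4 list, and -2.284 for Pim1 and -1.331 for Cish of the EPO signalling list. It was 4.389 for Socs3 (adjusted p = 2.83e-08), -2.529 for Ccnd2, -2.34 for Hk2, -0.743 for Lyl1 and 0.392 for Pole.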

How the results depend on the processing

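With 1 array left out, 3659 to 4434 probe sets were higher and 3456 to 5562 lower, and 2291 to 2600 and 1825 to 2210 with a fold of at least 2. Same-numbered E1 and E2 arrays did not deviate together (r = 0.0586, 0.0126 and 0.042), so the replicate number as a block served only as a check: 4438 were higher and 4822 lower on 14 arrays, and 2934 and 2574 on 7. Array weights gave 7962 lower and the methods' t-test at an unadjusted p under 0.05 gave 12636 lower (4307 adjusted). That t-test was single-tailed in the direction seen, so its threshold was looser than that of the main fit. A fold of at least 1.5 gave 3875 higher and 3411 lower. The causes were not tested. Quantile normalization turned the median of the EPO, Kit and glucocorticoid list to -0.233 and Tnfrsf13c to -2.001. It acted on values with a constant per probe set subtracted, so it is a limited check. On the 7 arrays alone Tfr2, Csf2rb, Runx1, C1qb, Skp2 and Atg4c did not pass. Among the 220 checked genes 185 passed, and 150 of these kept direction and side of the threshold under every alternative. Of 352 list medians under an alternative, 292 moved by less than the spread between replicates.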
